A study of Mus musculus with 22 samples.

Results

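A set of 30 genes that mark microglia and their resting state was followed in whole brains of aged mice, as the 30 rows of the deposited count table whose gene symbol is P2ry12, P2ry13, P2ry6, Tmem119, Cx3cr1, Csf1r, Olfml3, Fcrls, Sall1, Siglech, Gpr34, Selplg, Trem2, Ctss, Ly86, Laptm5, Mertk, Inpp5d, Cyth4, Pld4, Abi3, Slc2a5, Tgfbr1, Irf8, Spi1, Aif1, Itgam, Cd33, Lpcat2 or Rgs10. All 30 were found among the 56748 genes of the table, and all 30 were among the 20026 genes with enough counts to be tested. Microglia are the resident macrophages of the brain, and they depend on signalling through the receptor Csf1r and on TGF-beta. In the resting state they carry a characteristic set of surface receptors that sense nucleotides, chemokines and lipids, together with lysosomal enzymes and lineage transcription factors. Several of these genes, among them P2ry12, Tmem119 and Cx3cr1, are widely used to identify microglia and are often reported lower when the cells are activated.

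The mice were male C57BL/6J, 22 in all, with 1 RNA-seq library each, and every group was aged to 17.5 months. From 10 weeks of age, exposed mice had received Gulf War chemicals by intraperitoneal injection once a day for 10 days: 0.7 mg/kg pyridostigmine bromide, a cholinesterase inhibitor, and 200 mg/kg permethrin, a pyrethroid insecticide. Control mice had received the vehicle instead. Later, mice of 1 exposed arm received cannabidiol (CBD, a non-intoxicating cannabinoid) at 30 mg/kg in 5% Tween 80 in PBS daily for 28 days and then every 2 days for 2 weeks, and the other arms received vehicle. On the morning after the last dose each mouse received either 0.33 mg/kg lipopolysaccharide (LPS) from Escherichia coli, a bacterial cell wall component that engages the receptor TLR4, or sterile PBS, and brains were taken 24 hours later. The 6 groups were CtrlVeh (controls, vehicle, PBS) with 3 mice, CtrlVehLPS with 3, GWVeh (exposed, vehicle, PBS) with 4, GWVehLPS with 4, GWCBD30 (exposed, CBD, PBS) with 4 and GWCBD30LPS with 4. No unexposed mice were given CBD, so its comparison with vehicle is within exposed mice. The title of the series names neuroimmune priming and its reversal by CBD as the question, which for these genes is the LPS response in each arm and the differences between arms. In whole brain RNA, fewer microglia and less RNA per microglial cell cannot be told apart.

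The libraries held 17152595 to 31150515 counts (median 21561372), and 3 counts corresponded to 0.0963 to 0.175 CPM (counts per 1000000 counts of a library). CtrlVehLPS replicate 1 stood apart: its 10 cerebellar neuron markers summed to 221 CPM against 1091 to 1869 in the other 21 libraries, and its pancreatic exocrine markers to 297 CPM against 2.67 to 4.40. The 10 olfactory bulb neuron markers summed to 175 to 304 CPM in the LPS controls against 116 to 131 in the PBS controls, so regional markers moved with LPS in the control arm. These sums in exposed vehicle mice were 136 to 144 CPM with PBS and 127 to 182 with LPS, and in exposed CBD mice 130 to 143 with PBS and 133 to 178 with LPS. Averaged over the 3 arms, 5 of the 10 bulb markers were higher with LPS (edgeR, adjusted p under 0.05, as were 2.49% of all tested genes). Their median log2 fold change was 0.68. In exposed vehicle mice all 10 estimates were positive, with a median of 0.62, and 0 passed. In exposed CBD mice 5 were positive, with a median of 0. Neuronal markers summed to 6510 to 7730 CPM, astrocyte markers to 4162 to 5359 and oligodendrocyte markers to 4853 to 7651 over the 22 libraries of the labelled tissue, whole brain. Whether the mice within a group were littermates or cage mates is not stated in the labels.

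Per kilobase of exon, the members spanned a wide range in the 11 PBS libraries. Ctss, the lysosomal cysteine protease cathepsin S, was the highest at 26.9 ± 3.31 RPKM (CPM divided by kilobases of exon, SD, n = 11). Rgs10, a regulator of G protein signalling, followed at 10.3 ± 0.746 RPKM and Csf1r at 9.79 ± 0.853 RPKM, and the SDs of these 2 genes overlapped. Laptm5 was at 8.43 ± 1.14, Tmem119 at 7.37 ± 0.463 and Cx3cr1 at 7.18 ± 0.751 RPKM, which neighbour one another within their spread. P2ry12 was at 5.69 ± 0.786 RPKM, ranking 8. The lineage transcription factors were lower, with Sall1 at 4.36 ± 0.273, Spi1 at 0.935 ± 0.119 and Irf8 at 0.725 ± 0.133 RPKM. Abi3, an adaptor of actin remodelling, was the lowest at 0.223 ± 0.120 RPKM. These lengths come from GENCODE release M21 and the counting annotation of the authors is not given in the sources used here, so the order is approximate.

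**Figure D1:**
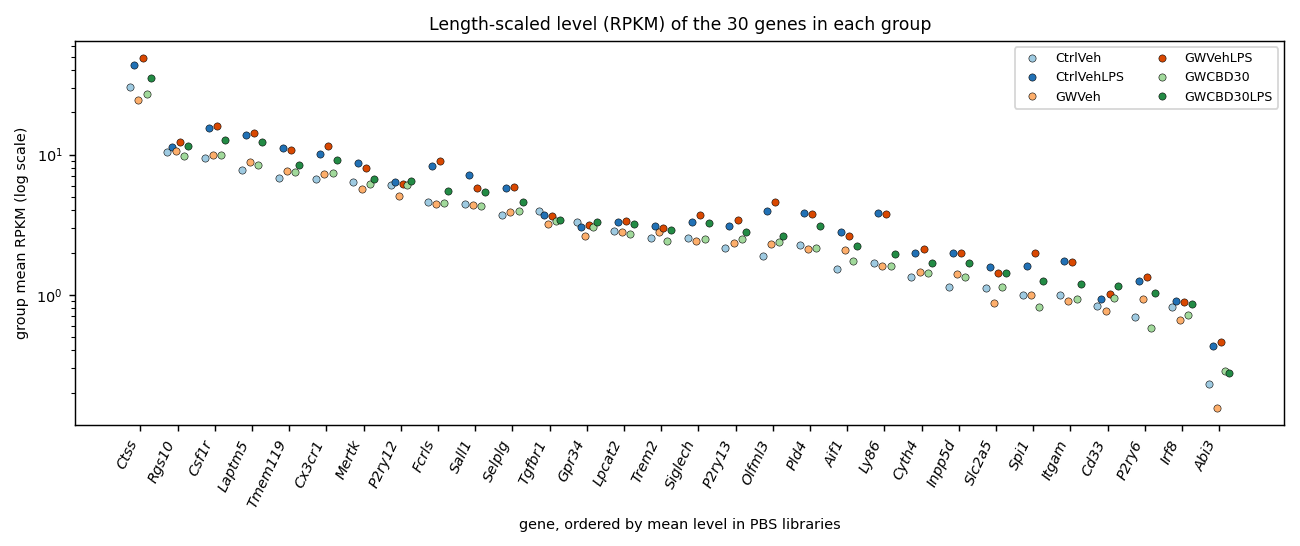
Length-scaled level of each of the 30 genes as the mean of each of the 6 groups, PBS and LPS, on a log axis in RPKM. Genes are ordered by their mean over the 11 PBS libraries, where Ctss leads at 26.9 RPKM and Abi3 is lowest at 0.223 RPKM.

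At 24 hours after LPS, microglial identity genes were higher in brain RNA and none was lower by the test. Averaged over the 3 arms with equal weight, 22 of the 30 rose and none fell (edgeR quasi-likelihood test, Benjamini-Hochberg adjusted p under 0.05 over all genes tested), where 3.52% of all tested genes were called in either direction and 2.49% were called higher and 1.03% lower. With bulb and cerebellar marker sums as covariates 16 were called, all of them among the 22, with a median log2 fold change of 0.45, and P2ry13, P2ry6, Siglech, Abi3, Slc2a5 and Aif1 lost their calls. The median log2 fold change of the 30 was 0.50, a 1.42-fold difference, against -0.01 over all tested genes, and all 30 estimates were positive. Ly86 had the largest estimate at 0.90 ± 0.09 (log2, SE) and Tgfbr1 the smallest at 0.04 ± 0.06. Summed over the 30 genes, PBS libraries held 400 to 469 CPM and LPS libraries 493 to 709 CPM, with no overlap.

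By arm, the counts of calls differed, and the tests of the differences between arms are given further on. In control mice 15 of the 30 rose (0.494% of all tested genes were called, 0.0799% lower), with a median log2 fold change of 0.62. In exposed mice on vehicle 20 of the 30 rose (0.939% called), with a median of 0.55, and 15 of them were called with the marker-sum covariates. In exposed mice on CBD none of the 30 passed the edgeR test (0.00499% called), with a median of 0.27, although 15 had an unadjusted p under 0.05 (8.22% of all tested genes had) and 29 estimates were positive. DESeq2 called 3 of the 30 in this arm and limma voom 4. No member was called lower in any arm. By count of called arms, 15 members rose in both vehicle arms, 5 rose in 1 arm, 10 in none, and 0 in all 3.

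**Figure D2:**
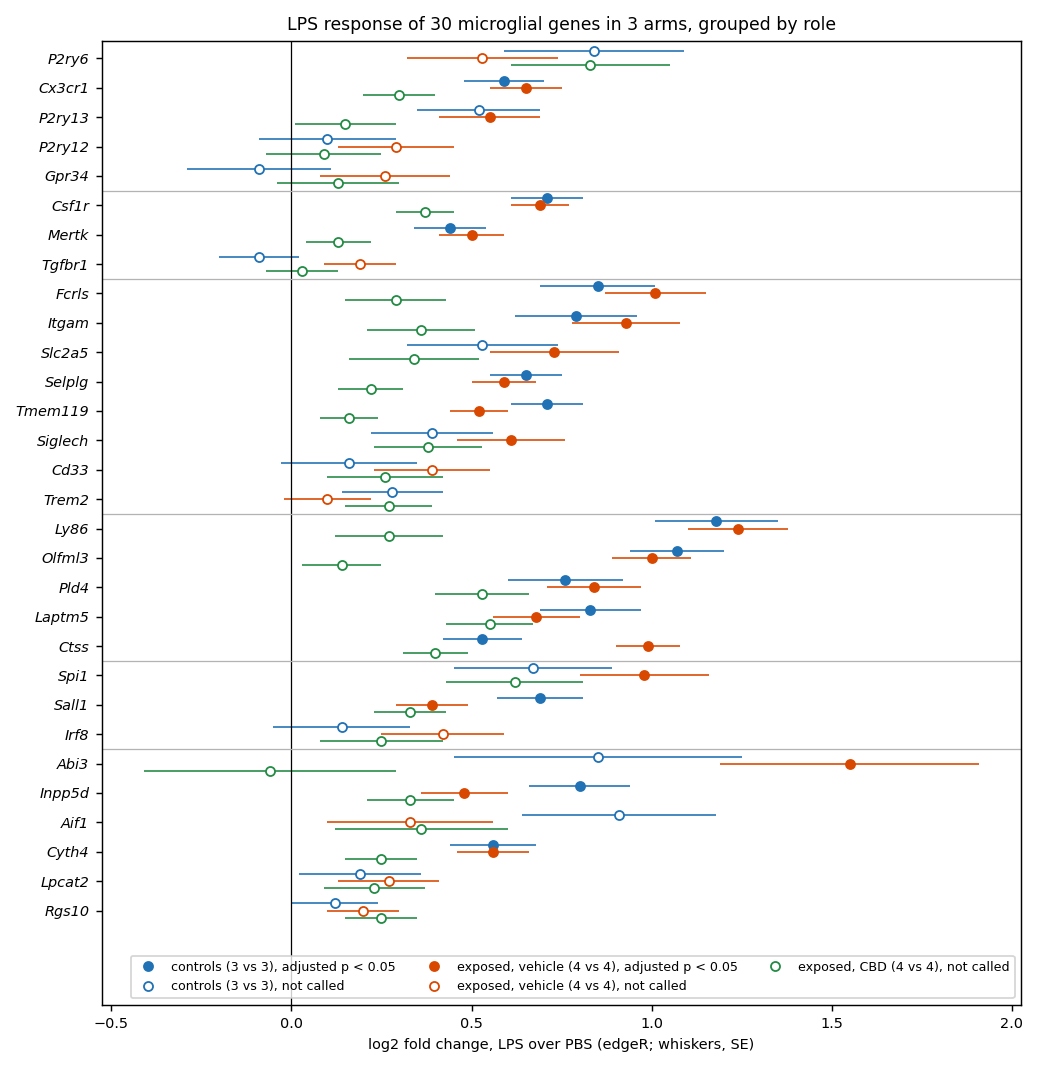
Log2 fold change of LPS over PBS (x axis) for each gene (rows, grouped by role and ordered by size), in control mice (blue), exposed vehicle mice (orange) and exposed CBD mice (green), with whiskers of 1 SE and filled points for adjusted p under 0.05. Filled points number 15, 20 and 0 in the 3 arms, and most green points lie to the left of the blue and orange ones.

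The summed level of the 30 genes shows the same arms library by library. It ran from 421 to 429 CPM in PBS controls and from 618 to 639 CPM in LPS controls. In exposed vehicle mice it ran from 400 to 443 CPM with PBS and from 557 to 709 CPM with LPS. CBD-treated exposed mice held 407 to 469 CPM with PBS and 493 to 553 CPM with LPS. The 3 PBS groups overlapped in this sum, and all 4 CBD-treated LPS libraries lay below all 7 other LPS libraries. The gap was narrow, from 552.5 CPM in GWCBD30LPS replicate 2 to 557.1 CPM in GWVehLPS replicate 4. In the mean log2 level of the 30 genes this order reversed, at 3.85 and 3.80, so the groups overlapped. The 3 arms share no library. Across the 30 genes their LPS fold changes correlated at r = 0.69 (rho = 0.67) between controls and exposed vehicle mice, at r = 0.35 (rho = 0.38) between controls and exposed CBD mice, and at r = 0.08 (rho = 0.33) between exposed vehicle and exposed CBD mice. These are correlations across 30 genes, which are not independent replicates and share the libraries of their arm. Abi3, at 6 to 71 counts per library, was at 1.55 ± 0.36 (log2, SE) in exposed vehicle and -0.06 ± 0.35 in exposed CBD mice. The r of 0.08 includes Abi3, and its value without this gene was not computed.

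Without any model, 22 members in controls had every LPS library above every PBS library (9.19% of all tested genes did so, and 8.14% did so in the other direction, with no member among them), 20 in exposed vehicle mice (3.5%) and 11 in exposed CBD mice (3.4%). The 11 in CBD-treated mice were P2ry6, Cx3cr1, Csf1r, Sall1, Selplg, Ctss, Laptm5, Cyth4, Slc2a5, Spi1 and Rgs10. For Csf1r, Laptm5, Cx3cr1, Selplg and Cyth4 all 11 LPS libraries lay above all 11 PBS libraries. The share of all tested genes that did so over the 3 arms was not counted, so this count has no background beside it. With bulb and cerebellar marker sums as covariates, the count in controls was 5 (Tmem119, Csf1r, Olfml3, Inpp5d and Laptm5) and the median 0.49 in place of 0.62. Of the calls lost, Itgam stood at 0.79, Ly86 at 0.97, Cx3cr1 at 0.51 and Ctss at 0.48 on the log2 scale in that fit, and Sall1 at 0.20. In the same arm 12 were called without CtrlVehLPS replicate 1. Leaving out 1 PBS control at a time gave 8 (replicate 2), 9 (replicate 3) or 10 (replicate 1).

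**Figure D3:**
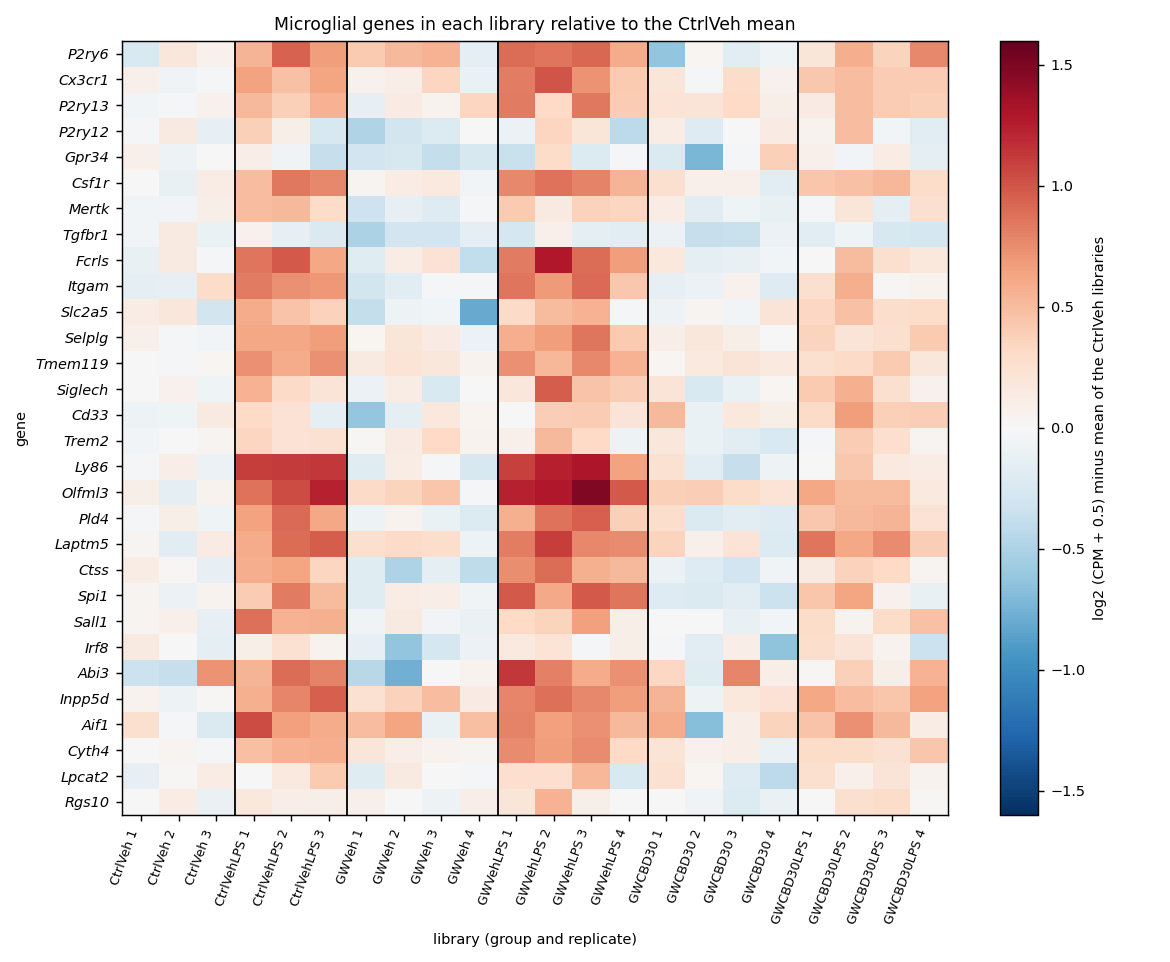
Each gene (rows) in each of the 22 libraries (columns), as log2(CPM + 0.5) minus the mean of the 3 CtrlVeh libraries, on a colour scale from blue (lower) to red (higher). Red fills the LPS columns of the vehicle arms for most genes, is paler in the GWCBD30LPS columns, and is faint or missing for P2ry12, Gpr34 and Tgfbr1.

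The 5 secreted and lysosomal products all rose in both vehicle arms and had the largest median of any role group, 0.83 in controls and 0.99 in exposed vehicle mice, against 0.40 in exposed CBD mice. Olfml3 (ENSMUSG00000027848, GRCm38 chr3:103722222-103738001, minus strand) encodes a secreted olfactomedin-domain protein of the extracellular matrix that is enriched in microglia. Olfml3 in control mice measured 12.3, 10.4 and 12.1 CPM with PBS and 21.4, 24.3 and 27.8 CPM with LPS. Olfml3 in exposed vehicle mice measured 14.4, 14.9, 15.9 and 11.4 CPM with PBS and 27.7, 28.7, 33.1 and 23.3 CPM with LPS. Olfml3 in exposed CBD mice measured 15.2, 15.4, 14.3 and 13.5 CPM with PBS and 18.1, 16.6, 16.6 and 12.9 CPM with LPS. LPS and PBS libraries did not overlap in the controls or in the exposed vehicle mice, while in the CBD-treated mice they did. Olfml3 rose 2.11-fold in controls (log2 1.07 ± 0.13, adjusted p = 1.38e-05, edgeR) and 1.99-fold in exposed vehicle mice (log2 1 ± 0.11, adjusted p = 1.07e-06, edgeR). Its log2 fold change in CBD-treated mice was 0.14 ± 0.11.

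Ly86 (ENSMUSG00000021423, GRCm38 chr13:37345208-37419036, plus strand), also called MD-1, encodes a secreted partner of the TLR4-related receptor RP105. Ly86 in control mice measured 6.08, 6.68 and 5.74 CPM with PBS and 13.9, 14 and 14.1 CPM with LPS. Ly86 in exposed vehicle mice measured 5.32, 6.72, 6.09 and 5.07 CPM with PBS and 13.7, 15.3, 15.8 and 9.92 CPM with LPS. Ly86 in exposed CBD mice measured 7.36, 5.403, 4.67 and 5.76 CPM with PBS and 6.14, 8.45, 6.91 and 6.72 CPM with LPS. The LPS libraries of both vehicle arms were all above their PBS libraries, and the CBD-treated groups overlapped. Ly86 was the most raised member in controls, at log2 1.18 ± 0.17 (adjusted p = 0.000122, edgeR), and rose by 1.24 ± 0.14 in exposed vehicle mice (adjusted p = 1.54e-06, edgeR). Under CBD its difference was 0.27 ± 0.15.

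Ctss (ENSMUSG00000038642, GRCm38 chr3:95526786-95556403, plus strand) encodes cathepsin S, which cleaves the invariant chain for antigen presentation and can shed the ligand of Cx3cr1. Ctss in control mice measured 44.4, 41.6 and 37.3 CPM with PBS and 61.5, 63.5 and 52.2 CPM with LPS. Ctss in exposed vehicle mice measured 35.9, 29.1, 37.2 and 30.9 CPM with PBS and 68.8, 76.4, 60.8 and 58.97 CPM with LPS. Ctss in exposed CBD mice measured 38.4, 35.3, 32.95 and 39.2 CPM with PBS and 45.5, 52.9, 51.3 and 42.4 CPM with LPS. All 3 arms separated LPS from PBS, and the 4 exposed vehicle PBS libraries all lay below the 3 PBS controls. Ctss rose by log2 0.53 ± 0.11 in controls (adjusted p = 0.0147, edgeR) and by 0.99 ± 0.09 in exposed vehicle mice (adjusted p = 3.36e-08, edgeR), with 0.40 ± 0.09 in CBD-treated mice (adjusted p = 0.124, edgeR).

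Laptm5 (ENSMUSG00000028581, GRCm38 chr4:130913125-130936141, plus strand) encodes a lysosomal membrane protein of blood-lineage cells. Laptm5 in control mice measured 30.2, 26.02 and 32.1 CPM with PBS and 44.6, 54.7 and 57.7 CPM with LPS. Laptm5 in exposed vehicle mice measured 35.1, 36.3, 35.8 and 27.6 CPM with PBS and 52.1, 63.9, 50.5 and 49.8 CPM with LPS. Laptm5 in exposed CBD mice measured 37.7, 31.2, 34.3 and 25.2 CPM with PBS and 53.5, 45.3, 49.7 and 38.7 CPM with LPS. Every LPS library was above every PBS library, in each arm and over all arms. Laptm5 kept more of its difference under CBD than Olfml3 or Ly86 in point estimate, at log2 0.55 ± 0.12 against 0.83 ± 0.14 in controls and 0.68 ± 0.12 in exposed vehicle mice. Pld4 (ENSMUSG00000052160, GRCm38 chr12:112760655-112768990, plus strand) encodes an endolysosomal exonuclease that degrades single-stranded nucleic acids. Pld4 in control mice measured 7.62, 8.38 and 7.44 CPM with PBS and 12.4, 15.1 and 12.3 CPM with LPS. Pld4 in exposed vehicle mice measured 7.38, 8.13, 7.25 and 6.64 CPM with PBS and 11.8, 14.7, 15.6 and 10.3 CPM with LPS. Pld4 in exposed CBD mice measured 9.64, 6.604, 6.87 and 6.67 CPM with PBS and 10.7, 11.4, 11.6 and 9.22 CPM with LPS. Its groups were apart in both vehicle arms, and in CBD-treated mice only PBS replicate 1 reached into the LPS range. Pld4 differed by log2 0.76 ± 0.16 in controls, 0.84 ± 0.13 in exposed vehicle mice and 0.53 ± 0.13 in CBD-treated mice, the last not past the test (adjusted p = 0.213, edgeR).

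**Figure D4:**
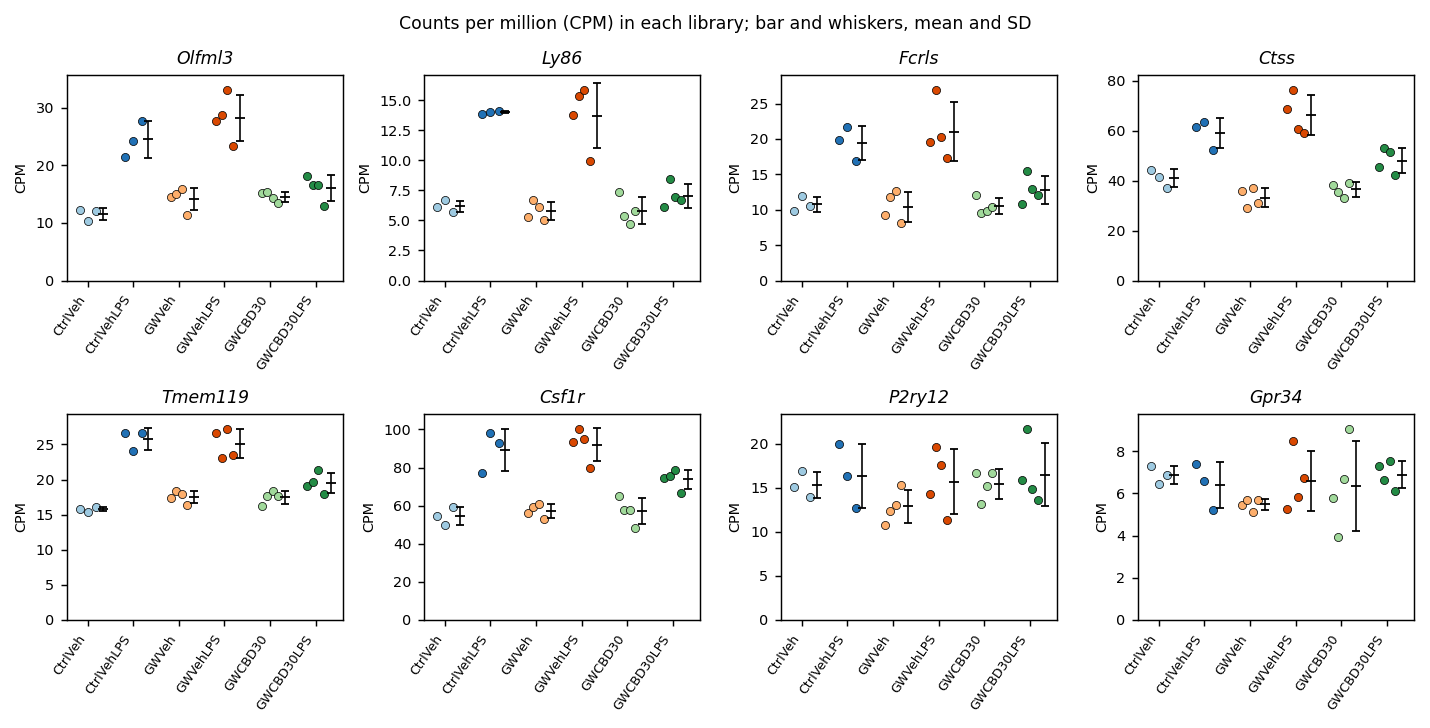
CPM in each library (points) for 8 of the 30 genes by group, with the group mean and SD beside the points and each y axis starting at 0. Olfml3, Ly86, Fcrls, Ctss and Tmem119 are higher in the LPS groups of the vehicle arms and lower in GWCBD30LPS than in GWVehLPS. Csf1r is higher in every LPS group and, without passing the test, is also lower in GWCBD30LPS than in GWVehLPS. P2ry12 and Gpr34 overlap between the PBS and LPS groups of each arm.

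The sequence upstream of the members was read from the RefSeq promoter table (GRCm38.p6), which held 23 of the 30 members and not P2ry6, Tmem119, Csf1r, Gpr34, Selplg, Abi3 or Spi1. PU.1, the product of Spi1, is the lineage factor of macrophages and binds a GAGGAA core. Within the 250 bases before the start, GAGGAA on either strand was found for 10 of the 23 genes (Aif1, Cd33, Ctss, Fcrls, Inpp5d, Itgam, Laptm5, P2ry13, Tgfbr1 and Trem2), or 10 of their 27 promoters, where 23.3% of 32851 mouse promoters hold it. The longer GAGGAAGT, which contains that core, was found for Inpp5d alone (2.44% of promoters hold it), and a composite PU.1 and IRF element, for Lpcat2 alone (2.3%). The promoters of Olfml3, Ly86 and Ctss are shown as examples among the members that rose in both vehicle arms and were lower with CBD under LPS. Fcrls, another of them, holds the core 144 bases before its RefSeq start, but most of that window lies within the gene as GENCODE M21 draws it and is not printed. The bases are printed 5′ to 3′ along each gene's strand, up to the first base annotated to the gene in RefSeq or GENCODE M21, whichever comes first, and capitals mark GAGGAA.
Olfml3 (chr3:103738002-103738251, minus strand): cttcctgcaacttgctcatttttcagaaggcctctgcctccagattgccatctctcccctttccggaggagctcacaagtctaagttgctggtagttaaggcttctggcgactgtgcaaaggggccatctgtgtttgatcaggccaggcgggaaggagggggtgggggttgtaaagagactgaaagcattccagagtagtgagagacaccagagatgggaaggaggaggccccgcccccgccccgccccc
Ly86 (chr13:37345095-37345207, plus strand): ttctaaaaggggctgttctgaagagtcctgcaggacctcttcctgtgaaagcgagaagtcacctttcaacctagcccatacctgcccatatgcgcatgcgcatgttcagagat
Ctss (chr3:95526536-95526785, plus strand): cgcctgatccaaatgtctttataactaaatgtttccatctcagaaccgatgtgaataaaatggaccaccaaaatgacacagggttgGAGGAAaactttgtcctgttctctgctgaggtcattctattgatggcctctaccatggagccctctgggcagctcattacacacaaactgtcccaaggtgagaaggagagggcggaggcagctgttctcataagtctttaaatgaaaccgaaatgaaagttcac
The core is present once in the Ctss window, with its first base 164 bases before the start, and these letters are not in the 250 bases before the start of Olfml3 or Ly86, of which 113 are printed for Ly86.

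Among the 8 other surface proteins, 6 rose with LPS when the arms were averaged, with a median of 0.48. Tmem119 (ENSMUSG00000054675, GRCm38 chr5:113793729-113800516, minus strand) encodes a transmembrane protein that separates microglia from other brain macrophages. Tmem119 in control mice measured 15.9, 15.4 and 16.1 CPM with PBS and 26.7, 24 and 26.7 CPM with LPS. Tmem119 in exposed vehicle mice measured 17.4, 18.4, 18.01 and 16.4 CPM with PBS and 26.6, 23.1, 27.2 and 23.5 CPM with LPS. Tmem119 in exposed CBD mice measured 16.2, 17.6, 18.4 and 17.7 CPM with PBS and 19.04, 19.6, 21.4 and 17.9 CPM with LPS. The vehicle arms were fully apart, and the CBD-treated groups overlapped at 17.9 to 18.4 CPM. Tmem119 rose by log2 0.71 ± 0.10 in controls (adjusted p = 6.70e-05, edgeR) and by 0.52 ± 0.08 in exposed vehicle mice (adjusted p = 0.000289, edgeR). Its difference under CBD was 0.16 ± 0.08. Its spread within groups was the smallest of the 30, with an SD of 0.09 on the log2 scale.

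Fcrls (ENSMUSG00000015852, GRCm38 chr3:87250758-87263738, minus strand) encodes an Fc receptor-like scavenger molecule. Fcrls in control mice measured 9.84, 11.97 and 10.6 CPM with PBS and 19.9, 21.6 and 16.8 CPM with LPS. Fcrls in exposed vehicle mice measured 9.31, 11.7, 12.7 and 8.08 CPM with PBS and 19.6, 26.9, 20.4 and 17.3 CPM with LPS. Fcrls in exposed CBD mice measured 12.1, 9.56, 9.898 and 10.4 CPM with PBS and 10.8, 15.5, 12.98 and 12.1 CPM with LPS. LPS and PBS ranges were apart in both vehicle arms and overlapped in CBD-treated mice. Fcrls rose by log2 0.85 ± 0.16 in controls (adjusted p = 0.00802, edgeR) and by 1.01 ± 0.14 in exposed vehicle mice (adjusted p = 4.76e-05, edgeR), and differed by 0.29 ± 0.14 in CBD-treated mice.

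Selplg (ENSMUSG00000048163, GRCm38 chr5:113818536-113832644, minus strand) encodes PSGL-1, the ligand of P-selectin. Selplg in control mice measured 16.7, 15.4 and 15.3 CPM with PBS and 24.6, 24.4 and 25.5 CPM with LPS. Selplg in exposed vehicle mice measured 16.2, 18.1, 17.3 and 14.8 CPM with PBS and 23.9, 25.5, 28.9 and 21.3 CPM with LPS. Selplg in exposed CBD mice measured 17.1, 18.01, 16.9 and 15.7 CPM with PBS and 20.3, 18.3, 19.04 and 21.2 CPM with LPS. Every LPS library exceeded every PBS library over all arms. Selplg rose by log2 0.65 ± 0.10 in controls and 0.59 ± 0.09 in exposed vehicle mice, and differed by 0.22 ± 0.09 in CBD-treated mice. Itgam, the alpha chain of complement receptor 3, rose by 0.79 ± 0.17 and 0.93 ± 0.15 in the vehicle arms, but 3450 of its 5024 exon bases are shared with a gene on the same strand, Gm49368, so how its reads were assigned is uncertain. Siglech, a sialic acid-binding lectin, and Slc2a5, a fructose transporter, rose in exposed vehicle mice only by the test, at 0.61 ± 0.15 and 0.73 ± 0.18. These calls were lost in 7 of 18 alternatives for Siglech and 8 of 18 for Slc2a5. The difference between arms was not called for either gene. Trem2, the lipid-sensing receptor that signals through Tyrobp, gave 0.28 ± 0.14, 0.10 ± 0.12 and 0.27 ± 0.12 in controls, exposed vehicle and exposed CBD mice, none called. Cd33, an inhibitory sialic acid-binding lectin, gave 0.16 ± 0.19, 0.39 ± 0.16 and 0.26 ± 0.16, none called.

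The 5 G protein-coupled receptors split. Cx3cr1, P2ry13 and P2ry6 rose when the arms were averaged, whereas P2ry12 and Gpr34 did not pass. Cx3cr1 (ENSMUSG00000052336, GRCm38 chr9:119901616-120069879, minus strand) is the receptor of the neuronal chemokine fractalkine. Cx3cr1 in control mice measured 32.2, 29.2 and 29.6 CPM with PBS and 47.8, 42.2 and 47.01 CPM with LPS. Cx3cr1 in exposed vehicle mice measured 31.8, 32.7, 38.8 and 28.1 CPM with PBS and 53.6, 61.3, 50.3 and 40.8 CPM with LPS. Cx3cr1 in exposed CBD mice measured 34.8, 29.8, 37.3 and 31.8 CPM with PBS and 41.2, 42.96, 40.4 and 40.1 CPM with LPS. The lowest LPS library, at 40.1 CPM, lay above the highest PBS library, at 38.8 CPM. Cx3cr1 rose by log2 0.59 ± 0.11 in controls and 0.65 ± 0.10 in exposed vehicle mice, with 0.30 ± 0.10 in CBD-treated mice (adjusted p = 0.404, edgeR).

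P2ry12 (ENSMUSG00000036353, GRCm38 chr3:59216272-59262871, minus strand) is the ADP receptor through which microglial processes move toward injury. P2ry12 in control mice measured 15.1, 16.9 and 13.96 CPM with PBS and 20.01, 16.3 and 12.8 CPM with LPS. P2ry12 in exposed vehicle mice measured 10.8, 12.3, 13.04 and 15.4 CPM with PBS and 14.3, 19.6, 17.6 and 11.3 CPM with LPS. P2ry12 in exposed CBD mice measured 16.7, 13.2, 15.2 and 16.7 CPM with PBS and 15.9, 21.7, 14.8 and 13.6 CPM with LPS. LPS and PBS ranges overlapped in all 3 arms. P2ry12 differed by log2 0.10 ± 0.19, 0.29 ± 0.16 and 0.09 ± 0.16 in controls, exposed vehicle and exposed CBD mice, and by 0.16 ± 0.10 when averaged (adjusted p = 0.412, edgeR). Gpr34 (ENSMUSG00000040229, GRCm38 chrX:13632089-13640858, plus strand) is a receptor of lysophosphatidylserine. Gpr34 in control mice measured 7.28, 6.45 and 6.86 CPM with PBS and 7.38, 6.58 and 5.204 CPM with LPS. Gpr34 in exposed vehicle mice measured 5.46, 5.67, 5.13 and 5.68 CPM with PBS and 5.24, 8.499, 5.83 and 6.72 CPM with LPS. Gpr34 in exposed CBD mice measured 5.76, 3.92, 6.69 and 9.05 CPM with PBS and 7.31, 6.64, 7.52 and 6.11 CPM with LPS. The ranges overlapped in every arm, and the 4 exposed vehicle PBS libraries were below the 3 PBS controls. Gpr34 averaged 0.10 ± 0.11 over the arms (adjusted p = 0.685, edgeR). P2ry12 and P2ry13 lie within Med12l and Gpr34 within Cask, each on the opposite strand, and whether the counting used strand is not given in the sources used here.

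Per kilobase, the ratio of Csf1r to P2ry12 in a library describes their unequal change. It was 1.59 ± 0.286 (SD, n = 3) in PBS controls and 2.52 ± 0.765 (n = 3) in LPS controls. In exposed vehicle mice it was 2.00 ± 0.337 (n = 4) with PBS and 2.65 ± 0.409 (n = 4) with LPS, and in exposed CBD mice 1.65 ± 0.276 (n = 4) and 2.03 ± 0.345 (n = 4). Library ranges overlapped between PBS and LPS in each arm. P2ry6, the UDP receptor linked to phagocytosis, had its differences at 0.84 ± 0.25, 0.53 ± 0.21 and 0.83 ± 0.22 in controls, exposed vehicle and exposed CBD mice, none called alone, and rose when averaged (0.73 ± 0.13, adjusted p = 0.000896, edgeR). P2ry13, a second ADP receptor, rose in exposed vehicle mice by 0.55 ± 0.14 (adjusted p = 0.0493, edgeR). That call was lost in 9 of 18 alternatives, among them the replicate block (adjusted p = 0.0549, edgeR) and 5 of the fits that left out 1 library: GWVeh replicates 1, 2 and 3, and replicates 1 and 3 of GWVehLPS.

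Csf1r (ENSMUSG00000024621, GRCm38 chr18:61100598-61132149, plus strand), the receptor kinase for CSF1 and IL-34 on which microglial survival depends, rose in both vehicle arms. Csf1r in control mice measured 54.6, 49.97 and 59.3 CPM with PBS and 77.1, 98.1 and 92.9 CPM with LPS. Csf1r in exposed vehicle mice measured 56.1, 59.1, 60.9 and 52.8 CPM with PBS and 93.2, 100.2, 94.8 and 79.8 CPM with LPS. Csf1r in exposed CBD mice measured 65.2, 57.5, 57.8 and 48.1 CPM with PBS and 74.3, 75.5, 78.7 and 66.7 CPM with LPS. All 11 LPS libraries were above all 11 PBS libraries. Csf1r rose by log2 0.71 ± 0.10 in controls (adjusted p = 0.000122, edgeR) and by 0.69 ± 0.08 in exposed vehicle mice (adjusted p = 7.89e-06, edgeR), and its 0.37 ± 0.08 in CBD-treated mice had the smallest adjusted p of the 30 in that arm, 0.118 (edgeR). Of the 5774 exon bases of Csf1r, 873 are shared with Hmgxb3 on the opposite strand. Mertk, a receptor kinase for engulfing dying cells, rose by 0.44 ± 0.10 and 0.50 ± 0.09 in the vehicle arms and differed by 0.13 ± 0.09 under CBD. The Mertk call in controls was lost in 7 of 16 alternatives, among them each fit without 1 PBS control. Tgfbr1 (ENSMUSG00000007613, GRCm38 chr4:47353222-47414931, plus strand), the type I TGF-beta receptor, is the kinase that keeps microglia in their mature state and is also expressed by many other brain cells. Tgfbr1 in control mice measured 25.1, 28.6 and 23.96 CPM with PBS and 27.2, 23.5 and 21.99 CPM with LPS. Tgfbr1 in exposed vehicle mice measured 18.03, 20.8, 20.8 and 23.3 CPM with PBS and 21.2, 27.4, 23.1 and 22.9 CPM with LPS. Tgfbr1 in exposed CBD mice measured 24.1, 19.9, 20.03 and 24.1 CPM with PBS and 22.6, 24.6, 21.6 and 21.1 CPM with LPS. The groups overlapped in every arm. Tgfbr1 had the largest p of the 30 when averaged, at log2 0.04 ± 0.06 (adjusted p = 0.762, edgeR).

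Of the 3 transcription factors, Sall1 and Spi1 rose on average. Sall1, a zinc finger repressor that holds microglial identity, rose by 0.69 ± 0.12 in controls and 0.39 ± 0.10 in exposed vehicle mice. Its call in exposed vehicle mice (adjusted p = 0.0474, edgeR) was lost in 12 of 18 alternatives, among them upper-quartile scaling, limma voom, the replicate block (adjusted p = 0.0589, edgeR) and 6 of the fits that left out 1 library: replicates 1, 3 and 4 of GWVeh, and replicates 1, 2 and 3 of GWVehLPS. Sall1 differed by 0.33 ± 0.10 in CBD-treated mice, and with the marker-sum covariates its difference in controls was 0.20 (adjusted p = 0.604, edgeR). Spi1, which encodes PU.1, rose in exposed vehicle mice by 0.98 ± 0.18, with 0.67 ± 0.22 in controls and 0.62 ± 0.19 in CBD-treated mice, neither called. Irf8, the interferon regulatory factor that partners PU.1, gave 0.14 ± 0.19, 0.42 ± 0.17 and 0.25 ± 0.17, none called.

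Among the 6 intracellular proteins, 4 rose on average. Inpp5d, the lipid phosphatase SHIP1, rose by 0.80 ± 0.14 in controls and 0.48 ± 0.12 in exposed vehicle mice. Cyth4, an exchange factor for ARF GTPases, rose by 0.56 ± 0.12 and 0.56 ± 0.10. The Inpp5d call in exposed vehicle mice was lost in 7 of 18 alternatives, and the Cyth4 call in controls in 6 of 16. Aif1, which encodes the widely stained microglial protein IBA1, was called in no single arm (0.91 ± 0.27, 0.33 ± 0.23 and 0.36 ± 0.24) and rose when averaged, by 0.53 ± 0.14 (adjusted p = 0.0295, edgeR). The averaged Aif1 call was lost in 6 of 31 alternatives: with the marker-sum covariates (0.51, adjusted p = 0.182, edgeR) and without CtrlVeh replicate 2 or 3, CtrlVehLPS replicate 1, GWVeh replicate 3 or GWCBD30LPS replicate 2. Abi3 (ENSMUSG00000018381, GRCm38 chr11:95830074-95842476, minus strand) was measured at few counts. Abi3 in control mice measured 0.569, 0.553 and 1.75 CPM with PBS and 1.48, 2.02 and 1.87 CPM with LPS. Abi3 in exposed vehicle mice measured 0.504, 0.301, 0.869 and 0.917 CPM with PBS and 2.48, 1.89, 1.56 and 1.76 CPM with LPS. Abi3 in exposed CBD mice measured 1.22, 0.693, 1.83 and 0.961 CPM with PBS and 0.877, 1.27, 0.954 and 1.499 CPM with LPS. Its PBS and LPS ranges were apart in exposed vehicle mice and overlapped in the other 2 arms. Abi3 rose by log2 1.55 ± 0.36 in exposed vehicle mice (adjusted p = 0.0216, edgeR), the largest estimate of that arm. This call was lost in 3 of 18 alternatives, and the Abi3 call averaged over arms (0.78) in 11 of 31. However, 2913 of its 4153 exon bases are shared with Zfp652 and 1708 with Phospho1 on the opposite strand. Lpcat2, a lysophospholipid acyltransferase, gave 0.19 ± 0.17, 0.27 ± 0.14 and 0.23 ± 0.14, and Rgs10 gave 0.12 ± 0.12, 0.20 ± 0.10 and 0.25 ± 0.10, none called.

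Exposure to the Gulf War chemicals, more than a year before sampling, was compared with vehicle controls in mice without CBD. Without LPS, none of the 30 passed the edgeR test, nor did any gene of the table (0% called). At an unadjusted p under 0.05 there were 4 of the 30 against 8.8% of all tested genes, and DESeq2 called 0 and limma voom 1. The median difference was -0.02, from -0.58 (Abi3, ± 0.41) to 0.47 (Aif1, ± 0.26). The 4 were Tgfbr1 (-0.32 ± 0.10), Ctss (-0.30 ± 0.10), Inpp5d (0.33 ± 0.13) and Olfml3 (0.29 ± 0.13), with adjusted p of 0.440 to 0.529 (edgeR). Exposed vehicle libraries lay all above the controls for Tmem119 and Inpp5d (4.8% of all genes did) and all below for Gpr34, Ctss and Tgfbr1 (4.59%).

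Under LPS, none of the 30 differed between exposed vehicle and control mice by edgeR (0.00499% called), DESeq2 or limma voom. Sall1 alone had an unadjusted p under 0.05 (-0.31 ± 0.11, adjusted p = 0.461, edgeR), against 7.73% of all tested genes. The test of whether exposure changed the LPS response called none of the 30 (0% called), with 1 at an unadjusted p under 0.05 against 8.43% of all genes, and DESeq2 and limma voom called 0. That member was Ctss, whose LPS response was larger in exposed vehicle mice by log2 0.47 ± 0.14 (adjusted p = 0.348, edgeR). For Olfml3 the difference of responses was -0.08 ± 0.17, for Ly86 0.06 ± 0.22, for Csf1r -0.02 ± 0.13 and for P2ry12 0.19 ± 0.25 (SE).

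CBD was compared with vehicle in exposed mice. Without LPS none of the 30 passed in edgeR (0% called), DESeq2 or limma voom, and 3 had an unadjusted p under 0.05 against 6.43% of all tested genes: P2ry6 (-0.69 ± 0.23), Abi3 (0.84 ± 0.37) and Slc2a5 (0.38 ± 0.19), all with an adjusted p of 0.752 (edgeR). Under LPS 5 of the 30 were lower with CBD and none was higher (0.24% of all tested genes were called, 0.225% lower and 0.015% higher). The median difference was -0.27, against 0.00 over all genes, and 27 of 30 estimates were negative. At an unadjusted p under 0.05 there were 16 of the 30, the 5 included, against 7.1% of all genes.

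Ly86 fell by 0.97 ± 0.14 on the log2 scale (adjusted p = 0.000267, edgeR) and Olfml3 by 0.81 ± 0.11 (adjusted p = 0.000121, edgeR). Fcrls fell by 0.72 ± 0.14 (adjusted p = 0.00830, edgeR), Ctss by 0.46 ± 0.09 (adjusted p = 0.0125, edgeR) and Tmem119 by 0.37 ± 0.08 (adjusted p = 0.0375, edgeR). In these 5 genes all 4 CBD-treated LPS libraries lay below all 4 vehicle LPS libraries, as did those of Csf1r, Selplg, Inpp5d and Abi3, making 9 of the 30 (2.5% of all genes did). Selplg differed by -0.34 ± 0.09 (adjusted p = 0.116, edgeR) and Csf1r by -0.32 ± 0.08 (adjusted p = 0.125, edgeR), neither past the test. P2ry12 (0.06 ± 0.16), Gpr34 (0.08 ± 0.17) and Cd33 (0.19 ± 0.16) were the 3 with positive estimates. Olfml3 and Ly86 were called in all 18 alternative analyses of this comparison. Calls in total were 2 without GWCBD30LPS replicate 1 or without its replicate 4, 3 without GWVehLPS replicate 1, and 9 with limma voom. The Tmem119 call was lost without GWVehLPS replicate 1 or 3 or GWCBD30LPS replicate 1, 2 or 4, that of Ctss without GWVehLPS replicate 1 or 2 or GWCBD30LPS replicate 1 or 4, and that of Fcrls without GWCBD30LPS replicate 1 or 4.

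**Figure D5:**
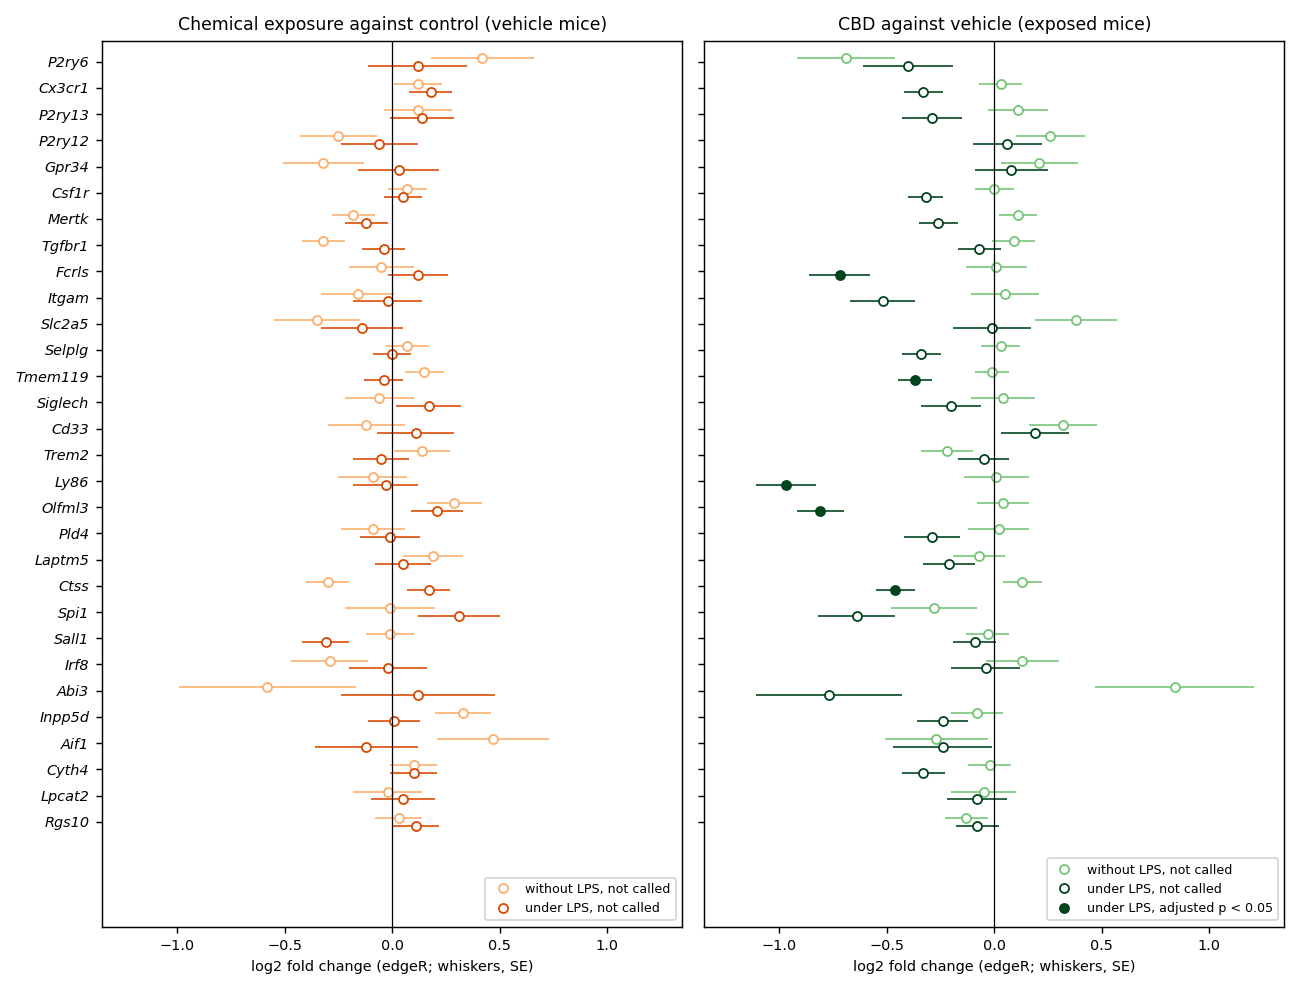
Log2 differences of each gene (rows, ordered by role) for chemical exposure against control in vehicle mice (left) and for CBD against vehicle in exposed mice (right), without LPS (pale) and under LPS (dark), with whiskers of 1 SE and filled points for adjusted p under 0.05. The 5 filled points are Fcrls, Tmem119, Ly86, Olfml3 and Ctss in CBD against vehicle under LPS, at -0.37 to -0.97.

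The test of whether CBD changed the LPS response in exposed mice called Olfml3 alone (0.0449% of all tested genes were called), with a smaller response by log2 0.85 ± 0.16 (-0.85, adjusted p = 0.0293, edgeR). Ly86 followed at -0.97 ± 0.21 (adjusted p = 0.0599, edgeR) and Ctss at -0.60 ± 0.13 (adjusted p = 0.0806, edgeR), neither called. Over the 30 the median difference of responses was -0.31, with 26 negative and 12 at an unadjusted p under 0.05 (5.69% of all genes). This test shares the exposed vehicle libraries with the comparison of CBD and vehicle under LPS and with the LPS response of exposed vehicle mice, so the 3 are not independent of one another. The Olfml3 call was lost without any 1 of 7 libraries (GWVeh replicates 2 and 4, GWVehLPS replicates 1 and 3, GWCBD30 replicates 1 and 2 and GWCBD30LPS replicate 4), at adjusted p of 0.0520 to 0.134 (edgeR).

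Against unexposed controls, exposed mice on CBD showed no called member without LPS (0% called by edgeR, 2 of the 30 with an unadjusted p under 0.05 against 3.1% of all genes, and 0 by DESeq2 and limma voom). Under LPS, Ly86 (-0.99 ± 0.15, adjusted p = 0.00381, edgeR) and Olfml3 (-0.60 ± 0.12, adjusted p = 0.0398, edgeR) were lower than in LPS controls, with 0.0699% of all genes called. The median of the 30 was -0.25, with 26 negative and 12 at an unadjusted p under 0.05 (6.23% of all genes). With the marker-sum covariates neither gene was called, at -0.83 for Ly86 and -0.72 for Olfml3 (adjusted p = 0.167 and 0.108, edgeR). Without GWCBD30LPS replicate 1 neither was, at -0.93 and -0.66 (adjusted p = 0.0643 and 0.108, edgeR). Olfml3 also lost its call without CtrlVehLPS replicate 2 or 3 or any other GWCBD30LPS library, at adjusted p of 0.0819 to 0.154 (edgeR). DESeq2 called 4 members and limma voom 8. Relative to Csf1r per kilobase, Olfml3 in LPS libraries was 0.258 ± 0.0243 (SD, n = 3) in controls, 0.287 ± 0.0272 (n = 4) in exposed vehicle mice and 0.204 ± 0.0193 (n = 4) in exposed CBD mice. Ly86 on the same scale was 0.252 ± 0.0310 (n = 3), 0.235 ± 0.0284 (n = 4) and 0.152 ± 0.0209 (n = 4). Both ratios were lower in each CBD-treated LPS library than in each LPS library of the vehicle arms. Olfml3 and Ly86 had the smallest p of the 30 for CBD under LPS in these same libraries, and Csf1r differed by less. The lower ratios restate those differences and are not a separate result.

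Other genes of the same pathways moved in part, where 2.49% of all tested genes were called higher with LPS averaged over arms and 1.03% lower. Of 11 ligands and activators of the member receptors, 2 rose with LPS averaged over arms and none fell: Tgfb1, the TGF-beta ligand (0.48 ± 0.10, adjusted p = 0.00564, edgeR), and Pros1, a ligand of Mertk (0.31 ± 0.08, adjusted p = 0.0251, edgeR). Tgfb2 was at 0.15 ± 0.06 (adjusted p = 0.169, edgeR), and the Csf1r ligands Csf1 (0.06 ± 0.06) and Il34 (-0.01 ± 0.05) were not called. Of 15 co-receptors, adaptors and signal transducers 6 rose, with the smallest p for Itgb2, the beta chain that pairs with Itgam (0.75 ± 0.10, adjusted p = 7.66e-06, edgeR), Tyrobp, the adaptor of Trem2 (0.52 ± 0.08, adjusted p = 0.000144, edgeR), and Plcg2, a phospholipase downstream of it (0.55 ± 0.10, adjusted p = 0.000786, edgeR). Of 13 other microglial transcription factors 4 rose, among them Sall3 (0.50 ± 0.10, adjusted p = 0.00311, edgeR) and Bhlhe41 (0.21 ± 0.05, adjusted p = 0.00797, edgeR). Sall3 is also a gene of olfactory bulb neurons, and with the marker-sum covariates it was at 0.22 (adjusted p = 0.413, edgeR). Bhlhe41 also lost its call in that fit, at 0.21 (adjusted p = 0.107, edgeR).

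Among 39 other microglia-enriched genes, 25 rose and none fell, with a median of 0.42. The 3 complement C1q chains led: C1qb (0.78 ± 0.05, adjusted p = 1.55e-12, edgeR), C1qa (0.69 ± 0.05, adjusted p = 2.27e-10, edgeR) and C1qc (0.66 ± 0.06, adjusted p = 3.79e-09, edgeR). In single arms 6, 21 and 0 of the 39 rose in controls, exposed vehicle and exposed CBD mice, and 3 were lower with CBD under LPS. None of 12 tested proliferation genes was called by edgeR (median -0.07), with Plk1 at -0.31 ± 0.16, Mcm5 at 0.12 ± 0.08 and Birc5 at -0.31 ± 0.29.

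Markers of other cells were read beside these results. Border-associated macrophages, which share Csf1r, Cx3cr1, Itgam and other members with microglia, had 3 of 11 tested markers higher with LPS averaged (2.49% of all tested genes were). The median of the 11 was 0.07, and 6 of the 11 estimates were positive. The 12 markers of these macrophages summed to 22.5 to 23.6 CPM in PBS and 28.3 to 34.0 in LPS controls, 21.2 to 25.0 and 30.7 to 37.8 in exposed vehicle mice, and 24.4 to 29.1 and 21.7 to 26.3 in exposed CBD mice. Endothelial markers summed to 143 to 160 CPM in exposed vehicle LPS libraries against 113 to 120 in CBD-treated ones, where 3 of 8 were lower with CBD (0.225% of all tested genes were). These sums moved with the CBD difference, and their part in it was not tested. Red blood cell markers summed to 229 to 355 CPM in CBD-treated LPS libraries and to 115 to 221 CPM in exposed vehicle ones, without overlap, and their part was not tested either. Of 10 neutrophil, 10 monocyte and 10 lymphocyte markers, 5, 5 and 2 reached the test and none was called with LPS averaged by edgeR, with medians of -1.25, -0.04 and 0.08. Ccr2, the defining receptor of inflammatory monocytes, had group means of 0.181 (LPS controls) to 0.386 CPM (exposed vehicle, PBS) over the 6 groups, and Ly6g, of neutrophils, had 3 counts or fewer in any whole group. Other neutrophil markers were measurable and uneven: the 10 summed to 1.745 to 20.36 CPM in PBS controls and 2.748 to 3.822 in LPS controls. These sums were 0.903 to 13.16 CPM with PBS and 2.113 to 11.46 with LPS in exposed vehicle mice. In exposed CBD mice they were 1.512 to 6.691 and 1.104 to 2.165 CPM. Of the 5 tested, 1 had a positive estimate with LPS averaged.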

How the data were processed

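Poly(A) RNA from whole brain (RNA integrity number at least 8.5) was sequenced as stranded libraries with paired reads of 150 bp and aligned to GRCm38/mm10, per the labels' protocols and the submitters' processing notes. The authors deposited whole-number read counts per gene, not normalized. The aligner, counter, strand setting and annotation were not given in the sources used here.

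From the counts, genes were filtered with filterByExpr, scaled by TMM and tested with edgeR 4.0.16 (R 4.3.3; quasi-likelihood, robust, two-sided) with all 22 libraries as 6 group means, 12 contrasts, and Benjamini-Hochberg adjustment over 20026 genes at 0.05. The common biological coefficient of variation was 0.103 with 16 residual degrees of freedom. CPM are TMM-scaled. Libraries of a group differed by 3.86 to 20.4 chi-square units per gene, beyond sampling noise. The alternatives tried were DESeq2 1.42.0, limma 3.58.1 voom with quality weights, other scalings and filters, the comparison's groups alone, a replicate block, marker-sum covariates, a threshold of 0.1, and each library left out in turn.

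The members and lists were chosen with earlier results of these data known. Values in every library are given for the 10 members with the smallest p for LPS averaged over arms, members called in any exposure, CBD or interaction contrast, the 2 with the largest p, and the lowest and highest by length-scaled level. P2ry12 is shown likewise, outside this rule and chosen after its values were seen. From each pathway list the 3 genes with the smallest p are named, except an item not reported here, and Csf1 and Il34 beside them as the Csf1r ligands. Cell type marker lists named in the text are given by counts called, by sums or by both, with Ccr2 and Ly6g chosen after their values were seen. Tmem173, a listed microglia-enriched gene, was not matched by symbol. Counts carry no molecular identifiers, so floors cover counting error only.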

Additional observations from a re-analysis of the deposited data

Results flagged for a closer look

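In groups of 4 libraries, 3 of the 120 member and group combinations held a library far from the others, where chance alone gives about 1 in 20. Laptm5 in GWVeh replicate 4 was at 27.65 CPM, below the other 3 libraries at 35.09 to 36.32 CPM. Laptm5 in GWVehLPS replicate 2 was at 63.94 CPM, above the other 3 at 49.8 to 52.09 CPM. Pld4 in GWCBD30 replicate 1 was at 9.637 CPM, above the other 3 at 6.604 to 6.874 CPM.

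The LPS response of Olfml3 differed between exposed CBD and exposed vehicle mice by -0.85 on the log2 scale, by the test of the interaction. Its log2 response was 1 ± 0.11 (SE) in exposed vehicle mice and 0.14 ± 0.11 in exposed CBD mice.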

How the results depend on the processing

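Of 65 called member results, 36 kept their call in every alternative run for them (16 to 31 each). RLE and upper-quartile scaling gave the same counts within 1.5 times in all 12 comparisons. For LPS in exposed CBD mice, where edgeR called 0, the count was 4 without a filter on low counts, 3 with DESeq2, 4 with limma voom and 2 with the replicate block. For exposed CBD against control mice under LPS, in place of 2, it was 6 without a filter, 1 with at least 1 CPM in 3 libraries, 4 with DESeq2, 8 with limma voom, 1 with the groups alone and 0 with the covariates. For the CBD by LPS interaction, in place of 1, it was 4 without a filter, 3 with DESeq2, 3 with limma voom, 2 with the replicate block and 3 at an adjusted p of 0.1. For the exposure by LPS interaction 1 was called without a filter, for exposure without LPS 1 by limma voom, for CBD under LPS 9 by limma voom, and for LPS in controls 5 with the covariates. The cause was not tested. With the bulb and cerebellar covariates the averaged LPS difference turned sign for P2ry12 (-0.04), Gpr34 (-0.01) and Tgfbr1 (-0.05), none called either way.

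Leaving out 1 library at a time gave 8 to 14 members called for LPS in controls, 14 to 20 in exposed vehicle mice, 0 in exposed CBD mice, 20 to 24 averaged, 2 to 7 for CBD under LPS, 0 to 2 for exposed CBD against control under LPS and 0 to 2 for the CBD by LPS interaction, and 0 in the other comparisons. For CBD under LPS, Tmem119 lost its call in 6 of 18 alternatives, Ctss in 4 and Fcrls in 2. For LPS in controls, Ctss, Pld4 and Itgam each lost their call in 5 of 16 alternatives, and Cx3cr1 and Fcrls each in 3. Residuals of same-numbered libraries correlated at -0.10 to 0.14 over 11 pairs, with 2 over 0.1. Differently numbered libraries were not compared, so these values cannot decide whether replicate numbers pair the samples. With the replicate block, the counts not named above were within 1.5 times of those without it. Depth limits Abi3 (6 to 71 counts per library), P2ry6 (26 to 118) and Aif1 (27 to 143) most.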
